A study of Mus musculus with 42 samples.

Results

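Synovial fibroblasts, the connective tissue cells that line and support the joint, were compared after 12 h with tumour necrosis factor alpha (TNFa) and after 12 h with bacterial lipopolysaccharide (LPS). The comparison holds 8 of the 42 arrays of the series, chosen by their labels, namely 4 cultures labelled TSG6-knockout and TNFa-treated and 4 labelled TSG6-knockout and LPS-treated. All 8 came from arthritic female BALB/c mice deficient in TSG-6, the hyaluronan-binding protein encoded by Tnfaip6. Arthritis had been induced with cartilage proteoglycan given with the adjuvant DDA, and no age of the mice or clone of the deficient line is stated in the labels. Cells released from the synovial tissue were grown for up to 6 passages, kept overnight in low serum, and then given TNFa at 5 ng/ml or LPS at 200 ng/ml. Set beside them are 8 untreated knockout-labelled cultures, and 2 TNFa-treated and 2 LPS-treated wild-type cultures from mice of the same strain and sex with the same arthritis. The cultures are labelled biological replicates, but whether each stems from its own mouse is not said, so the p-values measure only the spread between these cultures. The direct comparison of the stimuli uses no untreated culture in its difference, and the other arrays of the series enter through the spread, the centring and the choice of each gene's probe set.

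TNFa binds the receptors TNFR1 and TNFR2 (genes Tnfrsf1a and Tnfrsf1b) and acts through TRAF adaptors and the IKK kinases, while LPS is handed by CD14 to TLR4 with its partner MD-2 (gene Ly96) and acts through the adaptors MyD88 and TRIF. Both routes free the transcription factor NF-kB, which switches on chemokine, cytokine and adhesion genes together with its own inhibitors. TLR4 with TRIF, and TNFa through IRF1, can also start an interferon programme, in which STAT and IRF factors raise antigen presentation and antiviral genes. Synovial fibroblasts respond to both stimuli and are a main source of inflammatory mediators in arthritic joints.

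The deposited values are log2 values from which the median of each probe set over the 42 arrays has been taken, so a value of 0 is that median and no value is an absolute level. A difference below is the mean of the 4 TNFa arrays minus the mean of the 4 LPS arrays on the log2 scale, with its SE, and a positive difference means higher under TNFa. Adjusted p-values are from limma over all 18194 genes, with 0.05 as the threshold, and a gene past it is said to differ, to be higher or to be called. Values of single arrays are given in the order of replicates 1 to 4, a naming with no order of its own. The TNFa and LPS groups each fell evenly into sets of cultures, called a and b here, that separate in the values and carry no label of their own (replicates 1 and 2 in a, 3 and 4 in b). Emcn, an endothelial surface glycoprotein, stood at 0.54 and -0.14 on TNFa replicates 1 and 2 but at -4.76 and -4.49 on replicates 3 and 4, and at 0.29, -0.80, -4.20 and -5.00 on the LPS arrays. Replicates 2 and 4 of both groups also carried a signal above 1 on the 18S ribosomal RNA probe set. Neither the culture set nor the 18S signal was therefore unequal in number between the stimuli. Tnfaip6 itself stood at 0.13, 0.41, 0.18 and 0.66 on the TNFa arrays and at 0.46, 0.49, -0.09 and 0.17 on the LPS arrays. On the wild-type arrays it lay at 0.45 and 0.01 with TNFa and at 0.26 and 0.23 with LPS, so the probe set does not set the knockout label apart from wild-type. The sources do not say which stretch of Tnfaip6 was disrupted or whether the probe set covers it, and the cultures are called knockout-labelled for that reason.

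TNFa and LPS left these fibroblasts with clearly different transcript profiles after 12 h. The list of the largest differences was led by the chemokines that attract activated T cells, Cxcl9, Cxcl10 and Cxcl11, all higher under TNFa. Most inhibitor genes of NF-kB, the peptide-loading machinery of MHC class I, many interferon-stimulated genes and the colony-stimulating factors Csf2 and Csf3 were also higher under TNFa. Genes higher under LPS were fewer and their differences smaller, and most of the largest of them were genes that stood below untreated cultures under TNFa. Of the 18194 genes, 633 were called (3.48%), 442 of them higher under TNFa (2.43%) and 191 higher under LPS (1.05%), and 174 differed at least 2-fold, 143 with the higher value under TNFa and 31 under LPS. The median difference over all genes was -0.0063, and 48.5% of genes had a positive one. All 4 TNFa arrays lay above all 4 LPS arrays for 991 genes (5.45%), and all 4 LPS arrays lay above the TNFa arrays for 586 (3.22%), which together make 8.67% of genes. Within culture set a alone 512 genes were called (2.81%) and within set b alone 472 (2.59%), with 273 called in both in the same direction and 0 in opposite directions. Without the arrays of high 18S signal, which leaves 2 cultures per group, 273 genes were called, 196 higher under TNFa and 77 under LPS. With the culture set as a block the count was 1133, of which 720 were higher under TNFa.

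Each stimulus was also set against the 8 untreated cultures, which these comparisons share. TNFa against untreated called 2552 genes (14.0%) and LPS against untreated 326 (1.79%). At these doses and this single time the response to LPS was therefore the smaller by count. Nothing in the labels says that the doses are of equal strength.

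Among the receptors of the stimuli themselves, TNFR2 was the one that differed. Tnfrsf1b stood at 1.05, 0.90, 1.01 and 0.80 on the TNFa arrays and at 0.14, 0.45, 0.28 and 0.27 on the LPS arrays, a difference of 0.65 ± 0.12 or 1.57-fold (adjusted p = 0.000299), and a second probe set gave 0.36 (adjusted p = 0.202). The groups did not overlap. Tnfrsf1a, the receptor that most cell types carry, differed by -0.20 ± 0.08 (adjusted p = 0.28). Cd14 had risen over untreated cultures with both stimuli, by 1.06 with TNFa and by 0.81 with LPS, and the direct difference was 0.25 ± 0.18 (adjusted p = 0.671, 95% interval -0.11 to 0.61). Ly96 differed by -0.16 ± 0.21 (adjusted p = 0.88). Tlr4 was uneven between cultures, at -1.52, -0.13, -1.87 and -0.17 with TNFa and at 0.08, 0.27, -0.04 and -1.13 with LPS. Its difference of -0.72 ± 0.35 did not pass (adjusted p = 0.401). Without the arrays of high 18S signal, which are the TNFa arrays at -0.13 and -0.17 among others, the Tlr4 difference was -1.72 (adjusted p = 0.00531), while the other probe sets of the gene gave -0.39, -0.26 and -0.11 over all arrays. Tnf, the gene of the cytokine, had risen with both stimuli over untreated cultures, by 0.37 with TNFa and 0.65 with LPS, and differed by -0.28 ± 0.14 (adjusted p = 0.409).

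Of 19 measured genes of TNF receptor signalling, 6 were higher under TNFa and 0 under LPS, with a median difference of 0.22. They are Tnfrsf1b, the adaptors Traf1 and Traf5, the ubiquitin ligases Birc2 and Birc3 that work at the receptor complex, and Rnf31, the catalytic subunit of the linear ubiquitin ligase. Traf1 showed the largest difference of the list. It stood at 1.70, 1.74, 1.32 and 1.55 with TNFa and at 0.13, -0.66, -0.44 and -0.64 with LPS, a difference of 1.98 ± 0.15 or 3.95-fold (adjusted p = 8.22e-12). Of the LPS arrays, 3 lay within the untreated range of -0.68 to -0.13 and 1 above it. Birc3 differed by 0.92 ± 0.11 (adjusted p = 5.08e-07) and Traf5 by 0.78 ± 0.11 (adjusted p = 2.76e-06). Of 18 measured TLR4 signalling genes, 2 were higher under TNFa, the kinase Ikbke by 0.81 ± 0.12 (adjusted p = 6.19e-06) and the transcription factor Irf5 by 0.69 ± 0.18 (adjusted p = 0.0208). Irf5 missed the threshold without TNFa replicate 1 or 2 or LPS replicate 1 or 3 (adjusted p up to 0.0858), which left 1 call in the list, and the mean of its probe sets gave 0.21 (adjusted p = 0.712). The adaptor Myd88, at 0.18 ± 0.08, and the kinase Tbk1, at 0.36 ± 0.16, did not pass. The list's median difference was 0.20.

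NF-kB subunits and the genes that restrain NF-kB were higher under TNFa as a group. Of 15 measured, 9 were higher under TNFa and 0 under LPS, with a median difference of 0.76. All 9 were also called within each culture set, and the count was 9 with any single array left out. Without the arrays of high 18S signal 7 were called. The 4 TNFa arrays had list means of 0.83 to 0.96, the LPS arrays -0.09 to 0.22 and the untreated arrays -0.23 to 0.01. Nfkbie, which encodes the inhibitor IkB epsilon, stood at 1.78, 1.86, 2.11 and 2.34 with TNFa and at -0.45, -0.66, 0.23 and -0.01 with LPS, a difference of 2.25 ± 0.19 or 4.74-fold (adjusted p = 1.38e-10). Tnfaip3, which encodes the deubiquitinase A20, stood at 2.48, 2.13, 2.43 and 2.39 with TNFa and at 0.38, -0.01, 0.34 and -0.04 with LPS, a difference of 2.19 ± 0.15 or 4.57-fold (adjusted p = 8.67e-13). In both genes the LPS arrays sat at or near the untreated range, which ended at 0.03 for Nfkbie and 0.04 for Tnfaip3. Tnfaip2 differed by 1.86 ± 0.11 (adjusted p = 6.76e-14), Tnip1, a partner of A20, by 1.46 ± 0.14 (adjusted p = 1.81e-09) and Nfkbia, which encodes IkB alpha, by 1.11 ± 0.08 (adjusted p = 8.22e-12). The subunit genes themselves differed less, Nfkb2 by 0.87, Relb by 0.86 and Rela by 0.53, and the inhibitor gene Nfkbib by 0.76. Nfkbiz, an atypical inhibitor, was not called, at -0.32 ± 0.11 (adjusted p = 0.138), although all 4 of its LPS arrays lay above the TNFa arrays. Its other probe sets gave -0.24 and 0.93, the latter called toward TNFa (adjusted p = 0.000156 in limma with every probe set tested), so no single direction holds for Nfkbiz.

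**Figure D1:**
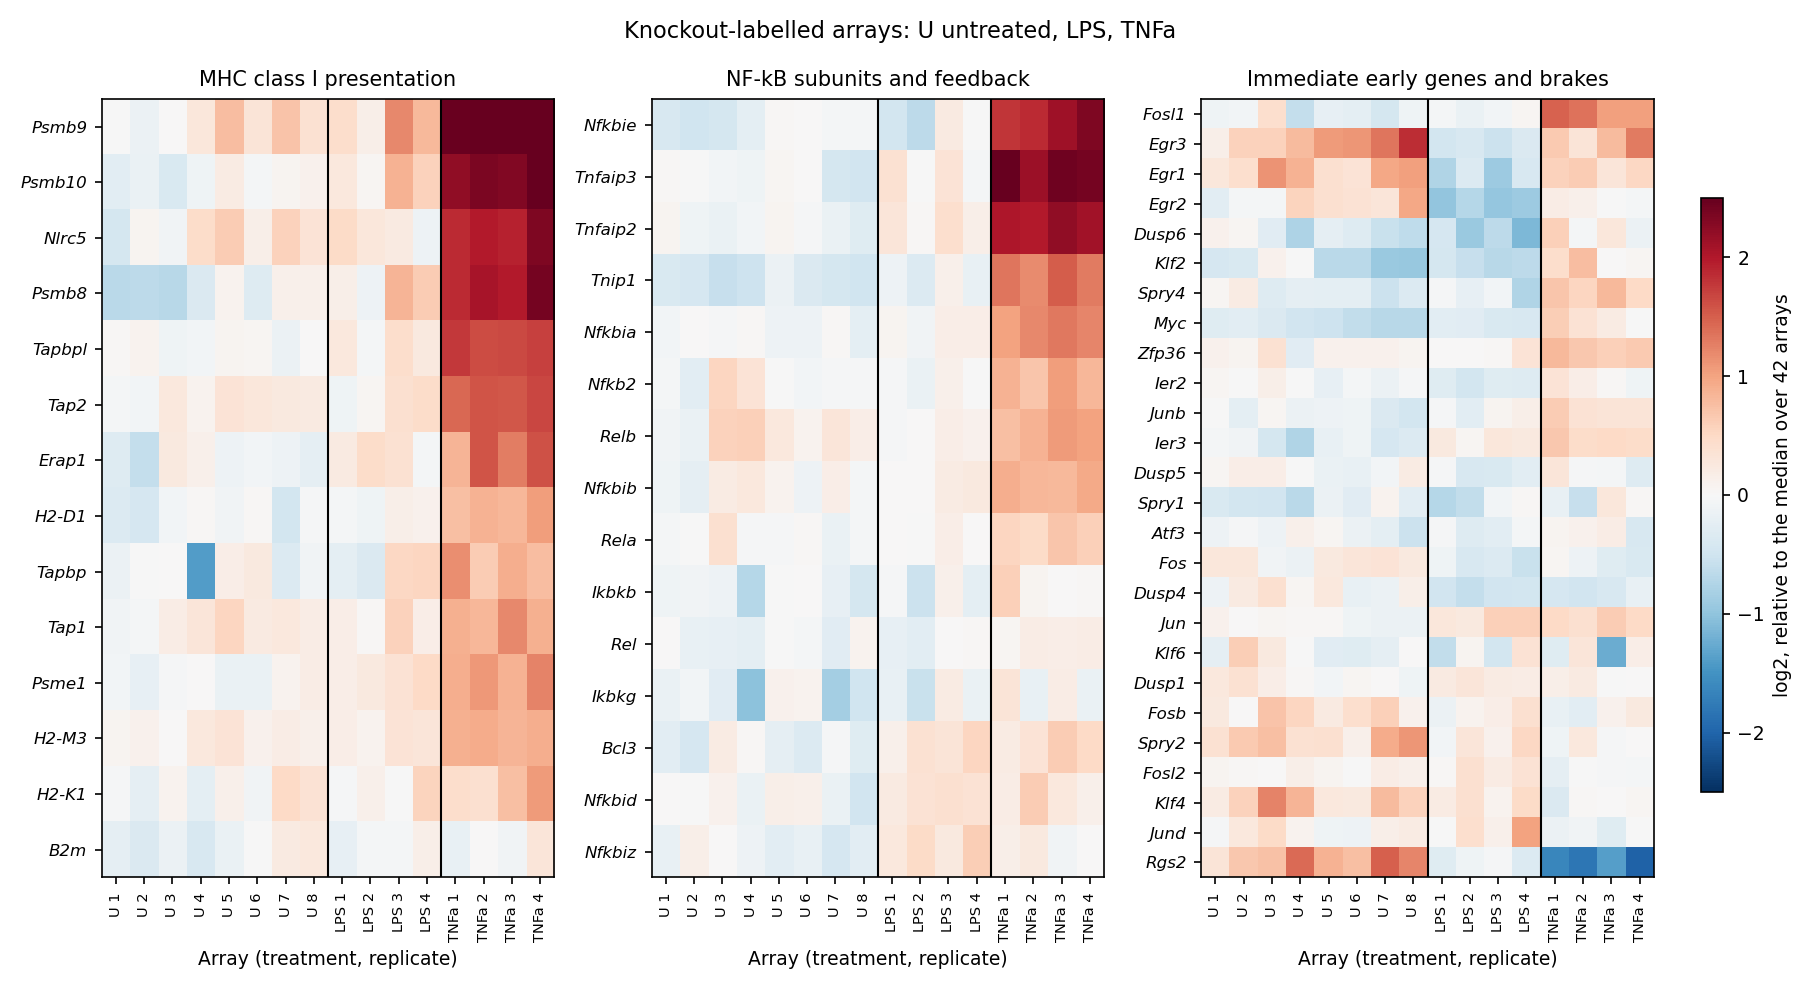
Centred log2 value (colour, limited at -2.5 and 2.5) of each measured gene of 3 lists, MHC class I presentation, NF-kB, and immediate early genes, on the 8 untreated, 4 LPS and 4 TNFa knockout-labelled arrays (columns). The TNFa columns are high for most class I and NF-kB genes, with NF-kB list means of 0.83 to 0.96 against -0.09 to 0.22 for the LPS columns, and the Egr genes are low in the LPS columns.

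Promoter windows were read for the genes of these groups because NF-kB and interferon factors bind known short motifs. They hold the 250 bases before the start of each gene in RefSeq's mouse annotation of GRCm38.p6, 32851 windows of 27025 genes, on whose both strands 3 motifs were searched: GGG and TTCC with any 3 bases between them for NF-kB, GAAA and GAAA with any 2 bases between them for the interferon response element (ISRE), and TTCNNNGAA for STAT factors (GAS). The NF-kB letters are in a window of 5.31% of genes, the ISRE letters in 3.46% and the GAS letters in 8.13%. Of the 9 called NF-kB genes, 8 have a window here, and 5 of these (62.5%) hold the NF-kB letters, namely Nfkb2, Nfkbia, Nfkbie, Tnfaip3 and Tnip1. The list was made up of NF-kB subunit and feedback genes, and no share was taken for its uncalled members. Its share therefore describes the listed genes and says nothing about the contrast of the stimuli. The same holds for the interferon and class I lists below. The windows of Nfkbie and Tnip1 are shown as examples of feedback genes, that of Cxcl10 for a chemokine gene with both motifs, that of Cxcl2 for a chemokine described with the genotypes, and that of Gbp3 for an interferon-stimulated gene. Each is 5′ to 3′ on the gene's own strand and ends at the base before the start. Capitals mark the bases of a match, those of overlapping matches being merged.
Nfkbie: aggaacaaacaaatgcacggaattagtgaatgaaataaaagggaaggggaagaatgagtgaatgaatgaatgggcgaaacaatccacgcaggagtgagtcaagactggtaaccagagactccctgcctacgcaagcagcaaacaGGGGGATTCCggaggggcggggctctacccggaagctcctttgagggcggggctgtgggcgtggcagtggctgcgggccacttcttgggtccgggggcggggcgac
Tnip1: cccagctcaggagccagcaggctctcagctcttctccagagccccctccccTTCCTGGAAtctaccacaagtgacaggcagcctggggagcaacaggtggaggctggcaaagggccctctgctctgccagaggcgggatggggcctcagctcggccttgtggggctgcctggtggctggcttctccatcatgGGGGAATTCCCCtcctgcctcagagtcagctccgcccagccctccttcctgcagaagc
Cxcl10: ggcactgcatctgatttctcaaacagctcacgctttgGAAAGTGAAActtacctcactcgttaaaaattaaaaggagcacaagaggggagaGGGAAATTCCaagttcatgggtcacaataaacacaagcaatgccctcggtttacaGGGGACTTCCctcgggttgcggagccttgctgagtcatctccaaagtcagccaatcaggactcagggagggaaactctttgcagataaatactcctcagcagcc
Cxcl2: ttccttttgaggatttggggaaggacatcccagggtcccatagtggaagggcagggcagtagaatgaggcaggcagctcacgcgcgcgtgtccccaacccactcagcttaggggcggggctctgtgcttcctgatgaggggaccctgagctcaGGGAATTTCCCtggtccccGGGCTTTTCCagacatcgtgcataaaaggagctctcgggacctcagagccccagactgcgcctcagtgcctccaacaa
Gbp3: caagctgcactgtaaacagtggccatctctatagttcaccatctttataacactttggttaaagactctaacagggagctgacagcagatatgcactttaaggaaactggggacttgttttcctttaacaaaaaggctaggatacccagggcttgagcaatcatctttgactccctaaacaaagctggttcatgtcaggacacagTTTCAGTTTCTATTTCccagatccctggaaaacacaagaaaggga
The Nfkbie window lies at chr17:45555450-45555699 on the plus strand and holds 1 NF-kB match at -106 to -97, positions counted back from the start. The Tnip1 window, chr11:54962941-54963190 on the minus strand, holds a GAS match at -199 to -191 and a pair of overlapping NF-kB matches on opposite strands. The Cxcl10 window, chr5:92348890-92349139 on the minus strand, holds an ISRE match at -213 to -204 and NF-kB matches at -159 to -150 and -104 to -95. The Cxcl2 window, chr5:90903649-90903898 on the plus strand, holds 3 NF-kB matches, the first 2 overlapping. The Gbp3 window, chr3:142559794-142560043 on the plus strand, holds a pair of overlapping ISRE matches read on the minus strand. Of the 13 called interferon-stimulated genes with a window, 5 (38.5%) hold the ISRE letters, namely Gbp2, Gbp3, Ifit3, Igtp and Oas1a, and 1 (7.69%) the NF-kB letters. Among the 8 called class I genes with a window, 0 hold the NF-kB letters and 2 (25%), H2-M3 and Psmb8, the GAS letters. Of the 10 genes with a window among the 12 largest differences toward TNFa, 2 hold the NF-kB letters, 1 the ISRE letters and 0 the GAS letters. None of the 11 with a window among the 12 largest toward LPS holds any of the 3, beside 5.31%, 3.46% and 8.13% of all genes for the NF-kB, ISRE and GAS letters. A match is a description of these letters and not a bound site, and a window without one says only that the letters are not in these 250 bases.

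The chemokines of the CXC family held the largest differences of the whole comparison. Cxcl9, Cxcl10 and Cxcl11 are ligands of CXCR3, the receptor of activated T cells and NK cells. Cxcl11 stood at 4.41, 5.61, 4.37 and 6.15 on the TNFa arrays and at 0.38, 1.05, 1.48 and 0.67 on the LPS arrays, a difference of 4.24 ± 0.28 or 18.9-fold (adjusted p = 4.95e-13). Every LPS array lay above the highest untreated array, at -0.31, so both stimuli had raised the gene (by 5.85 with TNFa and 1.61 with LPS over untreated cultures). Cxcl10 stood at 3.65, 4.23, 3.38 and 4.09 with TNFa and at 0.48, 0.35, -0.17 and -0.50 with LPS, a difference of 3.80 ± 0.39 or 13.9-fold (adjusted p = 1.02e-08). Its LPS arrays lay inside the untreated range of -1.03 to 2.06. Cxcl9 stood at 3.29, 4.27, 2.98 and 4.31 with TNFa and at 0.36, 0.37, 1.04 and 0.28 with LPS, a difference of 3.20 ± 0.40 or 9.21-fold (adjusted p = 4.47e-07). The groups did not overlap in these genes, as the choice of the 12 largest differences requires. For Cxcl11 and Cxcl9 a second probe set gave smaller differences, 0.83 and 0.86.

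Of 15 measured CXC and CX3C chemokines, 7 were higher under TNFa and 0 under LPS, and the median difference of the list, 0.12, was small, as most of the others lay near 0. The count was 7 with any single array left out. The neutrophil attractants Cxcl2 and Cxcl3 were among the 7. Cxcl2 stood at 2.39, 2.41, 2.27 and 2.26 with TNFa and at 0.98, 0.70, 1.00 and 0.38 with LPS, with untreated arrays at -0.94 to -0.13. Both stimuli had therefore raised it, and the difference between them was 1.57 ± 0.16 or 2.97-fold (adjusted p = 4.61e-09). Cxcl3 differed by 1.11 ± 0.17 (adjusted p = 3.49e-05), Cxcl16, a membrane-bound ligand of CXCR6, by 1.06 ± 0.15 (adjusted p = 6.79e-06) and the membrane-bound Cx3cl1 by 1.33 ± 0.29 (adjusted p = 0.00279). Other neutrophil attractants of the list did not pass, with Cxcl1 at -0.05 ± 0.13 and Cxcl5 at -0.10 ± 0.16, genes named after their values were seen. Of 16 CC chemokines, 3 were higher under TNFa, with a list median of 0.19. Ccl9 differed by 2.20 ± 0.25 or 4.61-fold (adjusted p = 6.26e-08). Ccl20, the ligand of CCR6, stood at 2.47, 1.19, 2.83 and 1.90 with TNFa and at 0.48, -0.66, 0.64 and -0.90 with LPS, a difference of 2.21 ± 0.44 (adjusted p = 0.00109). Ccl2, the monocyte attractant, differed by 0.34 ± 0.08 (adjusted p = 0.00509) and was not called within either culture set alone (adjusted p = 0.277 and 0.084). Ccl5 stood highest of the list over untreated cultures with both stimuli, at 4.74, 4.97, 4.91 and 5.22 with TNFa and at 2.63, 2.74, 3.69 and 4.05 with LPS. Although the groups did not overlap, its difference of 1.68 ± 0.53 did not pass (adjusted p = 0.0755).

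**Figure D2:**
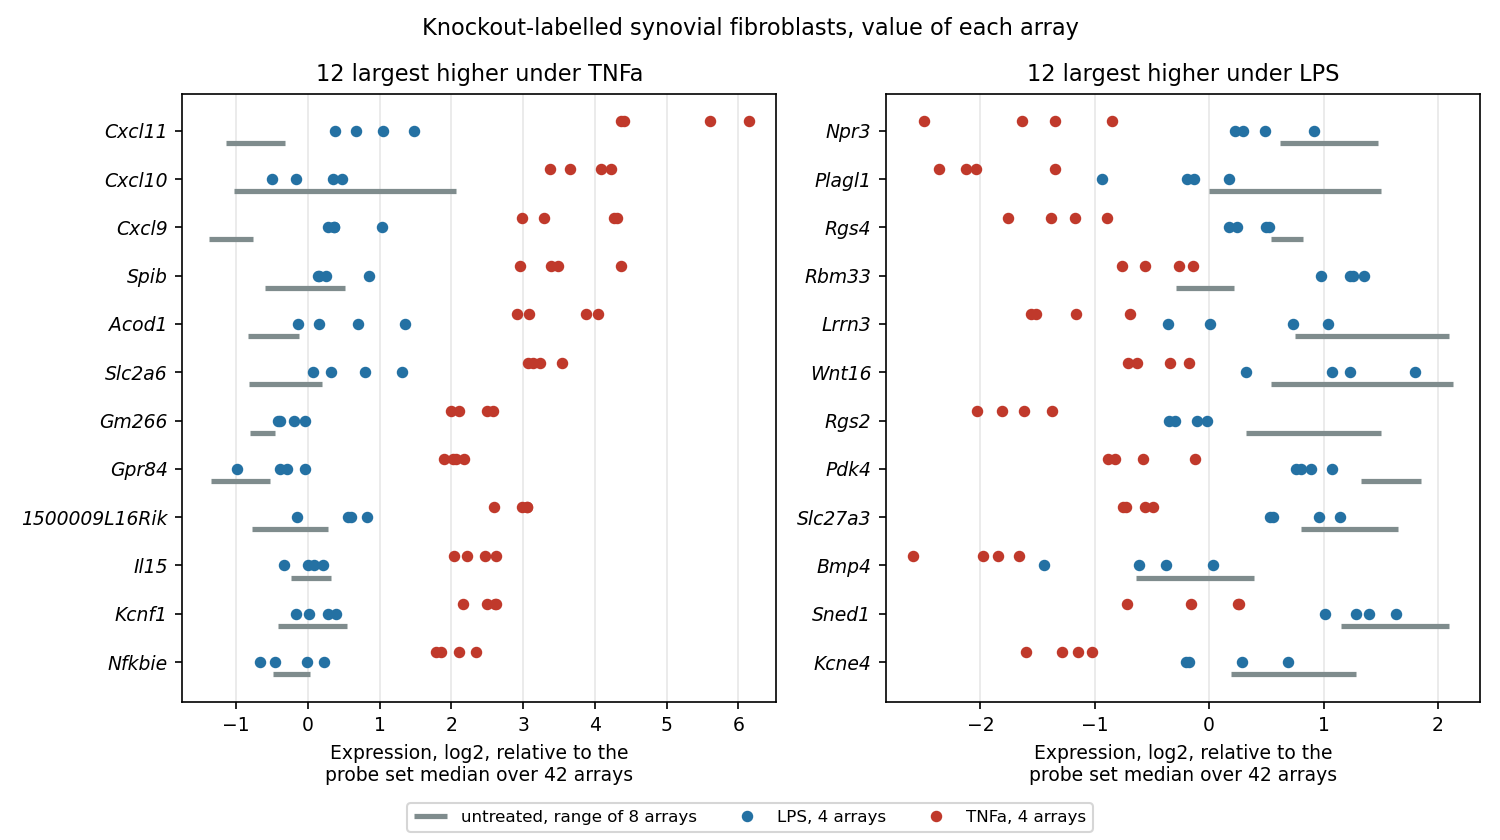
Centred log2 value of each TNFa and each LPS array (dots) for the 12 genes with the largest difference toward TNFa and the 12 toward LPS, with a bar for the range of the 8 untreated arrays. The dots of the stimuli do not overlap in any of the 24 genes, as the choice of genes requires. For 11 of the 12 genes toward LPS the LPS mean lies below the untreated mean, and for 9 of the 12 toward TNFa it lies above.

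Of 30 measured cytokines and growth factors, 9 were higher under TNFa and 1, Il1b, under LPS, with a median difference of 0.11. Il15, which sustains NK cells and memory CD8 T cells, stood at 2.22, 2.47, 2.04 and 2.62 with TNFa and at 0.21, 0.01, 0.09 and -0.33 with LPS, a difference of 2.34 ± 0.17 or 5.07-fold (adjusted p = 2.85e-12). The LPS arrays spanned the same values as the untreated ones, -0.23 to 0.33, apart from 1 array below them. Csf2, the gene of GM-CSF, stood at 2.66, 2.43, 2.43 and 2.5 with TNFa and at 0.79, 0.12, 0.32 and -0.05 with LPS, a difference of 2.21 ± 0.22 or 4.64-fold (adjusted p = 3.82e-09). Csf3, the gene of G-CSF, stood at 2.90, 2.06, 1.76 and 1.18 with TNFa and at 0.66, -0.03, 0.01 and -1.01 with LPS, a difference of 2.07 ± 0.32 or 4.19-fold (adjusted p = 2.60e-05). Untreated arrays lay at -1.05 to -0.41 for Csf2 and at -2.22 to -1.01 for Csf3, so all TNFa and LPS arrays stood above the untreated ones for Csf2, and for Csf3 all but LPS replicate 4, which lay at the top of the untreated range. Csf1, the macrophage growth factor, differed by 1.27 ± 0.20 (adjusted p = 3.74e-05), Lif, a cytokine of the interleukin-6 family, by 1.52 ± 0.20 (adjusted p = 1.87e-06) and Tslp by 1.35 ± 0.23 (adjusted p = 0.000109). The interleukin-12 subunits Il12a and Il12b, at 0.94 and 0.49, and Il34, at 0.43, were called with smaller differences. Il1b stood at 0.05, -0.31, -0.21 and -0.35 with TNFa and at 0.86, -0.07, 0.84 and 0.02 with LPS. The groups overlapped, and its difference of -0.62 ± 0.17 (adjusted p = 0.0369) missed the threshold without TNFa replicate 2, 3 or 4 or LPS replicate 1 or 3 (adjusted p up to 0.2).

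Of 34 measured interferon-stimulated genes, 19 were higher under TNFa and 0 under LPS, 33 had a positive difference, and the median difference was 0.91. The TNFa arrays had list means of 0.51 to 1.25 and the LPS arrays of -0.14 to 0.04. The untreated arrays ranged from -0.80 to 0.06 and so spread more widely than either group. The guanylate-binding protein gene Gbp3 stood at 1.29, 2.00, 1.68 and 2.32 with TNFa and at 0.31, 0.53, 0.44 and 0.27 with LPS, a difference of 1.44 ± 0.24 (adjusted p = 7.18e-05). The smallest adjusted p of the list was that of the ubiquitin ligase Trim21, at 1.29 ± 0.11 or 2.45-fold (adjusted p = 8.81e-11). Parp14 differed by 1.70 ± 0.19 (adjusted p = 5.86e-08), and the interferon-inducible GTPase genes Ifi47 and Igtp by 1.68 ± 0.23 and 1.41 ± 0.20. Cmpk2, at 1.73 ± 0.27, had the largest difference of the list. Antiviral effectors and sensors were among the rest, with Mx1 at 1.43 ± 0.26, Oasl2 at 1.21 ± 0.27, Zbp1 at 1.33 ± 0.22 and Ifih1 at 1.02 ± 0.23. Fewer were called with fewer arrays, 10 within culture set a, 8 within set b and 6 without the arrays of high 18S signal, and leaving out any single array gave 16 to 20.

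Of 18 STAT and IRF regulators, 5 were higher under TNFa and 0 under LPS, with a median difference of 0.27. Irf1, a transcription factor of interferon responses, stood at 1.71, 1.65, 2.02 and 1.81 with TNFa and at 0.10, -0.22, 0.31 and 0.20 with LPS. Its difference was 1.70 ± 0.11 or 3.25-fold (adjusted p = 2.68e-13), and all LPS arrays lay below the highest untreated array, at 0.40. The kinase Jak2 differed by 1.25 ± 0.20 (adjusted p = 6.18e-05) and stood above untreated cultures with either stimulus, by 2.21 with TNFa and 0.96 with LPS. The receptor chains Ifngr1 and Ifnar2, at 0.47 and 0.48, and the feedback inhibitor Socs1, at 0.66, were also called. Socs1 missed the threshold without TNFa replicate 1 or LPS replicate 1 or 2 (adjusted p up to 0.0683), and Ifngr1 without LPS replicate 2 (adjusted p = 0.053). Without LPS replicate 2 the count for the list was 2, without LPS replicate 1 it was 3, and without the arrays of high 18S signal it was 2.

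Genes of MHC class I presentation formed the list with the largest share of calls. Of 14 measured, 11 were higher under TNFa and 0 under LPS, all 14 had a positive difference, and the median was 0.96. The count was 11 with any single array left out, 10 and 11 within the culture sets and 9 without the arrays of high 18S signal. The TNFa arrays had list means of 1.24 to 1.54, the LPS arrays of 0.06 to 0.45 and the untreated arrays of -0.19 to 0.19. Psmb9, a catalytic subunit of the immunoproteasome, stood at 2.48, 2.88, 2.66 and 3.10 with TNFa and at 0.45, 0.14, 1.20 and 0.82 with LPS, a difference of 2.13 ± 0.20 or 4.38-fold (adjusted p = 9.81e-10). Psmb10, the second such subunit, stood at 2.21, 2.35, 2.31 and 2.52 with TNFa and at 0.27, 0.06, 0.87 and 0.57 with LPS, a difference of 1.90 ± 0.13 or 3.74-fold (adjusted p = 6.24e-13). The third, Psmb8, differed by 1.70 ± 0.20 (adjusted p = 1.36e-07). The 3 immunoproteasome subunits thus separated the stimuli on every array. The peptide transporter gene Tap2 differed by 1.36 ± 0.10 (adjusted p = 1.01e-11), Tap1 by 0.72 ± 0.11 (adjusted p = 3.34e-05) and Tapbpl, which edits bound peptides, by 1.46 ± 0.10 (adjusted p = 8.67e-13). Nlrc5, the transactivator of class I genes, stood at 1.87, 1.98, 1.92 and 2.34 with TNFa and at 0.48, 0.29, 0.22 and -0.12 with LPS, a difference of 1.81 ± 0.19 (adjusted p = 2.49e-08). Of the heavy chains, H2-D1 differed by 0.85 ± 0.12 and the nonclassical H2-M3 by 0.67 ± 0.08, both called. H2-K1, at 0.51 ± 0.18, the light chain gene B2m, at 0.05 ± 0.14, and Tapbp, at 0.75 ± 0.26, were not called. Of 10 MHC class II genes, Cd74, the invariant chain, and Cd40 were higher under TNFa, by 0.89 and 0.82. Cd74 missed the threshold without TNFa replicate 3 or 4 or LPS replicate 1 or 2 (adjusted p up to 0.16), and Cd40 without TNFa replicate 1, 3 or 4 or LPS replicate 1, 2 or 4 (adjusted p up to 0.22). Neither was called without the arrays of high 18S signal, at 0.82 and 0.52. The class II median was 0.14, with Ctss at 0.34 and H2-Eb1 at 0.15.

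Genes of the nitric oxide, arginase and itaconate enzymes were higher under TNFa in part. Of 9 measured, 4 were called, all higher under TNFa, and the median difference was 1.06. Acod1, which makes itaconate, stood at 3.08, 2.92, 4.04 and 3.88 with TNFa and at 0.70, -0.13, 1.36 and 0.16 with LPS, a difference of 2.96 ± 0.31 or 7.77-fold (adjusted p = 1.68e-08). Gch1, which makes the cofactor of nitric oxide synthase, differed by 1.26 ± 0.17 (adjusted p = 2.88e-06), and the arginase Arg2 by 1.79 ± 0.27 (adjusted p = 2.5e-05). The inducible nitric oxide synthase Nos2 had risen with both stimuli, by 3.81 with TNFa and 2.42 with LPS over untreated cultures. It stood at 3.47, 3.40, 3.34 and 2.95 with TNFa and at 1.92, 2.05, 1.78 and 1.84 with LPS, a difference of 1.39 ± 0.26 (adjusted p = 0.000447). Quantile normalization on top of the deposited values took the Nos2 difference to 0.01 (adjusted p = 0.994).

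Of 12 leukocyte adhesion genes, 3 were higher under TNFa and 0 under LPS, with a median difference of 0.12. Icam1, the ligand of leukocyte integrins, stood at 1.42, 1.38, 1.63 and 1.58 with TNFa and at 0.05, 0.12, 0.30 and 0.10 with LPS, a difference of 1.36 ± 0.14 (adjusted p = 1.38e-08). Its LPS arrays lay within the untreated range of -0.05 to 0.36. Madcam1 differed by 1.62 ± 0.29 (adjusted p = 0.000335) and Cd44, a hyaluronan receptor, by 1.06 ± 0.23 (adjusted p = 0.00316). Vcam1, at 1.16 ± 0.42, did not pass (adjusted p = 0.154). Of 14 prostaglandin genes, 2 were higher under TNFa. Ptges, the inducible prostaglandin E synthase, stood at 1.91, 1.89, 2.10 and 1.83 with TNFa and at 0.13, 0.05, 0.62 and 0.41 with LPS, a difference of 1.63 ± 0.17 (adjusted p = 1.10e-08). The prostacyclin receptor Ptgir differed by 1.09 ± 0.16 (adjusted p = 1.44e-05). Ptgs2, the inducible cyclooxygenase, at 1.17 ± 0.39, and the prostacyclin synthase Ptgis, at -0.54 ± 0.16, did not pass (adjusted p = 0.102 and 0.0618), and the list's median was 0.05.

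Matrix genes differed in few places. Of 19 matrix metalloproteinase genes and inhibitors, 2 were higher under TNFa and 1 under LPS, with a median difference of -0.09. Mmp9, a gelatinase, stood at 2.21, 2.26, 2.02 and 2.38 with TNFa and at 0.54, 1.01, 0.66 and 1.16 with LPS, against untreated arrays at -1.43 to -0.35. Its difference was 1.38 ± 0.22 (adjusted p = 4.83e-05), and under quantile normalization 1.05 (adjusted p = 0.079). Adamts4, an aggrecanase, differed by 1.37 ± 0.18 (adjusted p = 1.35e-06). Reck, a membrane-anchored inhibitor, was higher under LPS, at -0.67 ± 0.19 (adjusted p = 0.0348), and missed the threshold whichever array was left out (adjusted p 0.0509 to 0.104). Mmp11 was not called, at -0.44 ± 0.18. Of 9 plasminogen genes, the protease Plau and its receptor Plaur were higher under TNFa, by 1.40 ± 0.34 and 1.00 ± 0.20. Neither was called without the arrays of high 18S signal, where the differences were 1.84 and 1.08, and Plau missed the threshold without TNFa replicate 1 or 3 or LPS replicate 1 or 2 (adjusted p up to 0.0748), which left 1 call. Serpinb2, at 1.14 ± 0.42, and Thbd, at 0.28 ± 0.14, did not pass. Of 20 collagen chains, Col5a3 (0.74 ± 0.15) and Col18a1 (0.66 ± 0.14) were higher under TNFa and Col11a1 (-0.83 ± 0.15) under LPS, with a median of -0.08. Col3a1 was not called, at -0.73 ± 0.23. Among 23 genes of hyaluronan synthesis and binding, Cd44 and Tlr2 were higher under TNFa, Tlr2 by 1.34 ± 0.16 (adjusted p = 4.22e-07), and the median was -0.06. Hapln1, at -0.76, and Hyal2, at 0.17, were not called. Of 17 contractile genes, Tpm1 was higher under TNFa, by 0.50 ± 0.15 (adjusted p = 0.048), and it missed the threshold without TNFa replicate 1, 2 or 4 or LPS replicate 2, 3 or 4 (adjusted p up to 0.208). Ccn2 (-0.55), Tgfbi (-0.99) and Tgfb1 (0.45) were not called there.

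The other genes among the 12 with the largest differences toward TNFa have varied roles. Spib, an Ets transcription factor known from B cells and plasmacytoid dendritic cells, stood at 2.96, 3.48, 3.39 and 4.36 with TNFa and at 0.16, 0.14, 0.26 and 0.86 with LPS, a difference of 3.19 ± 0.22 or 9.16-fold (adjusted p = 1.25e-12). Slc2a6, of the glucose transporter family, stood at 3.14, 3.07, 3.54 and 3.23 with TNFa and at 0.80, 0.08, 1.31 and 0.32 with LPS, a difference of 2.62 ± 0.24 (adjusted p = 8.06e-10). Gpr84, a receptor for medium-chain fatty acids, stood at 2.06, 1.90, 2.18 and 2.02 with TNFa and at -0.29, -0.98, -0.04 and -0.38 with LPS, a difference of 2.46 ± 0.18 (adjusted p = 4.49e-12). Kcnf1, a potassium channel subunit, differed by 2.34 ± 0.16, Gm266 by 2.55 ± 0.24 and 1500009L16Rik by 2.46 ± 0.22. Each of the 12 was called under every setting tried, including each culture set alone and the arrays without high 18S signal. Second probe sets of Kcnf1, 1500009L16Rik and Gm266 gave smaller differences, 0.86, 0.62 and 0.21, the last not called (adjusted p = 0.799).

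Most of the largest differences toward LPS were in genes whose mean lay below that of untreated cultures with both stimuli and lowest with TNFa. Of the 12 largest, 11 had an LPS mean below the untreated mean, so that the LPS mean lay between the untreated and TNFa means. Single LPS arrays could still lie within the untreated range. Npr3, the clearance receptor of natriuretic peptides, stood at 0.30, 0.92, 0.49 and 0.23 with LPS and at -2.49, -1.35, -1.64 and -0.85 with TNFa, with untreated arrays at 0.62 to 1.48. Its difference was -2.07 ± 0.28 or 4.19-fold (adjusted p = 3.36e-06). Rgs2 and Rgs4 shorten the signals of G-protein-coupled receptors. Rgs2 stood at -0.30, -0.11, -0.02 and -0.35 with LPS and at -1.62, -1.81, -1.37 and -2.03 with TNFa, a difference of -1.51 ± 0.18 (adjusted p = 1.97e-07), and it had fallen against untreated cultures with both stimuli, by 1.13 with LPS and by 2.64 with TNFa. Rgs4 differed by -1.66 ± 0.26 (adjusted p = 2.54e-05). Pdk4, the kinase that switches off pyruvate dehydrogenase, stood at 0.76, 1.07, 0.89 and 0.80 with LPS and at -0.12, -0.58, -0.82 and -0.88 with TNFa, a difference of -1.48 ± 0.20 (adjusted p = 3.70e-06). Plagl1, an imprinted zinc-finger gene, differed by -1.70 ± 0.42 (adjusted p = 0.0112), and missed the threshold without TNFa replicate 1 (adjusted p = 0.0535) or LPS replicate 4 (adjusted p = 0.054). Its other probe sets, at -0.23 and -0.33, were not called. Lrrn3 (-1.58), Slc27a3 of the fatty acid transport family (-1.43), the matrix glycoprotein gene Sned1 (-1.42) and the potassium channel accessory gene Kcne4 (-1.41) complete the list with Wnt16, Bmp4 and Rbm33. Of the 12, 8 were called without the arrays of high 18S signal and 9 within culture set a.

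Rbm33 was the exception, in that LPS had raised it over untreated cultures, by 1.22. It stood at 1.23, 1.35, 1.26 and 0.98 with LPS and at -0.56, -0.76, -0.26 and -0.14 with TNFa, a difference of -1.64 ± 0.18 (adjusted p = 5.92e-08). The probe sets of the gene disagreed. One of the others gave 0.00 (adjusted p = 0.998) and another gave 0.79 in the opposite direction (adjusted p = 1.36e-05), so no single direction holds for Rbm33.

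Growth factor genes of bone and joint development went both ways, with few calls. Of 19 BMP and TGF-beta genes, 3 were higher under LPS and 1 under TNFa, with a median difference of 0.00. Over all genes the shares were 1.05% toward LPS and 2.43% toward TNFa. Bmp2 and Bmp4, related ligands, went opposite ways. Bmp2 stood at 2.05, 2.78, 1.80 and 1.64 with TNFa and at 0.42, 0.26, 0.55 and 0.32 with LPS, a difference of 1.68 ± 0.17 (adjusted p = 4.61e-09). Bmp4 stood at -1.66, -1.85, -1.98 and -2.59 with TNFa and at -0.61, -1.44, 0.03 and -0.38 with LPS, a difference of -1.42 ± 0.25 (adjusted p = 0.000191). The Bmp4 difference was -0.74 within culture set a (adjusted p = 0.173) and -2.11 within set b. Bambi (-0.44 ± 0.13) and Tgfb3 (-0.46 ± 0.14) were called toward LPS but were not stable. Bambi missed the threshold without TNFa replicate 2, 3 or 4 or LPS replicate 1, 3 or 4 (adjusted p up to 0.163), and Tgfb3 without TNFa replicate 1, 2 or 4 or LPS replicate 3 or 4 (adjusted p up to 0.193). The list had 2 calls without TNFa replicate 2 or 4 or LPS replicate 3. Of 26 Wnt genes, 3 were higher under LPS and 0 under TNFa, with a median of -0.20. Wnt16 stood at 0.32, 1.07, 1.23 and 1.80 with LPS and at -0.63, -0.71, -0.34 and -0.18 with TNFa, a difference of -1.57 ± 0.32 (adjusted p = 0.0013). Dkk3 (-0.69 ± 0.16) and Ccn5 (-0.63 ± 0.16) were the others, Dkk3 missing the threshold without LPS replicate 4 (adjusted p = 0.0547) and Ccn5 without TNFa replicate 2 or LPS replicate 3 (adjusted p up to 0.102), and Wnt5a (-0.63 ± 0.24) was not called. None of the 3 was called without the arrays of high 18S signal, where Wnt16 stood at -1.26 (adjusted p = 0.134). Of 14 glucocorticoid target genes, Pdk4 and Sgk1 (-0.36 ± 0.09) were higher under LPS, while Fkbp5 (0.76 ± 0.24) and Klf9 (-0.47 ± 0.16) were not called.

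Immediate early genes were mixed. Of 26 measured, 11 were higher under TNFa and 2 under LPS, with a median difference of 0.24. Egr1, Egr2 and Egr3, zinc-finger genes that answer to growth factors, were higher under TNFa and stood below untreated cultures under LPS. Egr1 stood at 0.57, 0.64, 0.31 and 0.52 with TNFa, within the untreated range of 0.28 to 1.13, and at -0.76, -0.35, -0.91 and -0.40 with LPS, a difference of 1.12 ± 0.20 (adjusted p = 0.000268). Egr2 differed by 0.96 ± 0.18 (adjusted p = 0.000725) and Egr3 by 1.21 ± 0.26 (adjusted p = 0.0026), and LPS had lowered them against untreated cultures, by 1.17 and 1.37. Fosl1, an AP-1 subunit, showed the other pattern, at 1.47, 1.36, 1.02 and 1.02 with TNFa and at -0.05, -0.16, -0.07 and 0.04 with LPS, with a difference of 1.28 ± 0.25 (adjusted p = 0.000725) and untreated arrays at -0.59 to 0.42. The brakes Spry4 (0.90), Dusp6 (0.95) and Zfp36 (0.59) were also higher under TNFa, as were Junb (0.43), Ier2 (0.45), Myc (0.62) and Klf2 (0.91). Rgs2 and the AP-1 gene Fosl2 (-0.33 ± 0.09) were higher under LPS, Fosl2 missing the threshold without TNFa replicate 1 or LPS replicate 2 or 4 (adjusted p up to 0.133). Without the arrays of high 18S signal the list had 4 calls. Leaving out TNFa replicate 1 gave 7 calls, and LPS replicate 2 or LPS replicate 4 gave 8.

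In the remaining lists few genes passed. Of 18 antioxidant genes, Hmox1 (1.10 ± 0.28), Srxn1 (0.63 ± 0.18) and the mitochondrial superoxide dismutase Sod2 (0.63 ± 0.15) were higher under TNFa, none of them without the arrays of high 18S signal, where the differences were 1.26, 0.65 and 0.69. Leaving out TNFa replicate 1 or 2 left 1 call, Hmox1 and Srxn1 also missed the threshold without LPS replicate 1 and without TNFa replicate 3 or LPS replicate 2 or 4, respectively (adjusted p up to 0.105 and 0.236), and Sod2 did without TNFa replicate 4 (adjusted p = 0.0551). Sqstm1, at 0.56, was not called. Of 14 apoptosis regulators, the death effector Bid (1.14 ± 0.25), the necroptosis effector Mlkl (0.95 ± 0.17) and the death receptor Fas (0.41 ± 0.12) were higher under TNFa, again none without those arrays, at 1.23, 0.74 and 0.24. Fas also missed the threshold without TNFa replicate 2, 3 or 4 or LPS replicate 2, 3 or 4 (adjusted p up to 0.158), and Bcl2l11, at -0.67, was not called. Clec4e, a receptor for microbial glycolipids, was the 1 of 18 antimicrobial and alarmin genes to pass, by 1.78 ± 0.38 (adjusted p = 0.0029). Its arrays overlapped, at 1.17, 0.39, 2.07 and 1.49 with TNFa and at 0.11, -1.45, 0.51 and -1.16 with LPS. Clec5a (-0.14), Slc11a1 (0.20) and Ptx3 (0.39) were not called. The collagen hydroxylase P4ha2 was the 1 of 23 hypoxia and glycolysis genes to pass, by 0.57 ± 0.10 (adjusted p = 0.000227), with Bnip3 (-0.43), Egln3 (0.56) and Ndrg1 (-0.40) not called. A second call appeared without TNFa replicate 4 or LPS replicate 1 or 3. In 4 lists no gene passed limma's adjusted threshold, although 2 cell cycle, 3 ER stress, 2 complement and 3 cholesterol genes had an unadjusted p under 0.05. Of all genes 3.48% were called, and at that share lists this short may hold none. With the culture set as a block 2 cell cycle, 3 ER stress, 2 complement and 6 cholesterol genes were called, all higher under TNFa. Those lists were 27 cell cycle genes (median 0.10, Mcm3 at 0.72, Mcm5 at 0.63, Ccnd1 at 0.55 and Pcna at 0.17), 20 ER stress genes (median 0.16, Phgdh at 0.59, Hspa5 and Atf4 at 0.40 and Manf at 0.39) and 11 complement genes (median -0.10, Cfb at 1.10, C2 at 0.71, C1qa at -0.26 and C3ar1 at -0.16). The complement factor gene Cfb and the serine synthesis gene Phgdh were called within each culture set alone, Cfb with adjusted p = 0.000198 and 0.000876. A single call appeared in the cell cycle list without TNFa replicate 3, in the ER stress list without LPS replicate 3 and in the complement list without TNFa replicate 1 or LPS replicate 4. The fourth was 17 cholesterol synthesis genes, whose differences were all positive, between 0.09 and 0.66, with a median of 0.35. Their list means were -0.18 to 0.06 on the TNFa arrays and -0.53 to -0.30 on the LPS arrays. Cyp51 (0.66), Srebf2 and Sc5d (0.48 each) and Hmgcs1 (0.35) had its smallest adjusted p-values.

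**Figure D3:**
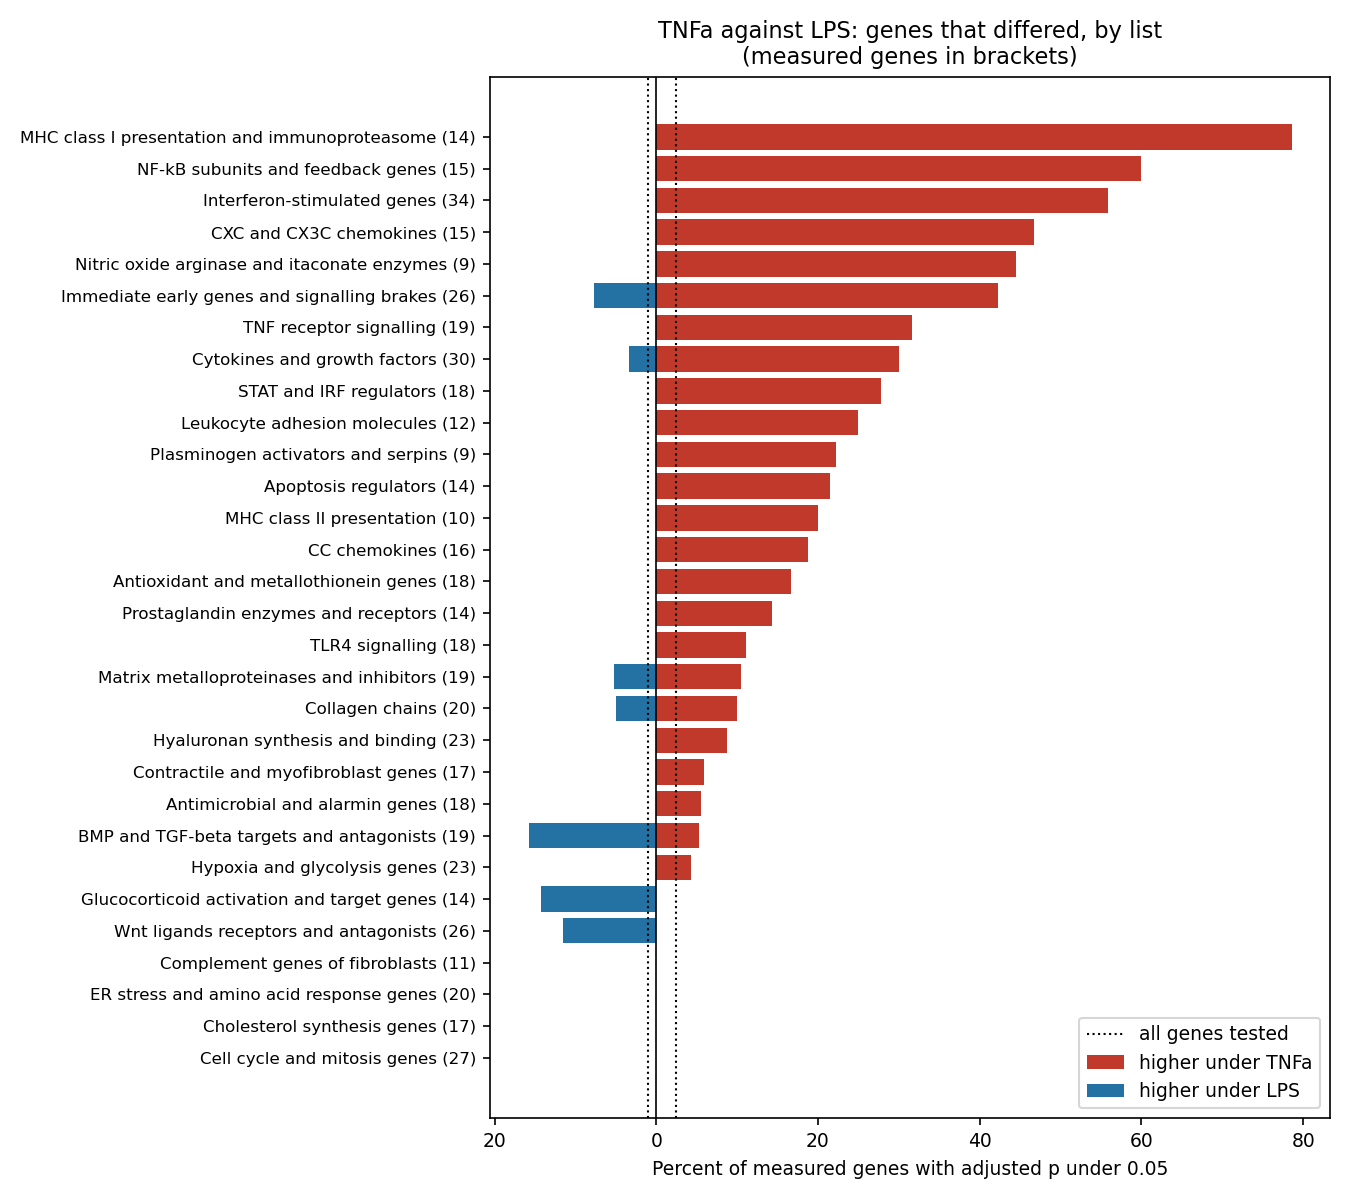
Percent of the measured genes of each pathway list called higher under TNFa and higher under LPS. Dotted lines mark the percent among all 18194 genes, 2.43% and 1.05%. The class I list has the largest share toward TNFa (11 of 14 genes) and the NF-kB list follows (9 of 15).

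The genes with the largest rises under LPS over untreated cultures were looked at from the other side, 12 genes chosen after their values were seen. TNFa stood higher than LPS for 6 of them, namely Cxcl11, Cxcl9, Nos2, Mmp9, Clec4e and Fabp7, a fatty acid binding protein gene (1.65 ± 0.32, adjusted p = 0.000657). Among all genes 2.43% were called toward TNFa. The LPS arrays by which the 12 were picked are also those of the contrast, so the choice favours genes with high LPS values. Il6, the cytokine of the acute phase, had risen by 2.09 with LPS and by 2.13 with TNFa. It stood at 0.86, 0.43, 1.03 and 0.97 with TNFa and at 1.49, 0.49, 1.49 and -0.35 with LPS, a difference of 0.04 ± 0.43 whose 95% interval ran from -0.82 to 0.91. Tnfsf11, the gene of the osteoclast factor RANKL, differed by 0.26 ± 0.50 (interval -0.76 to 1.27) and U90926 by 0.38 ± 0.36 (interval -0.36 to 1.11). These intervals are wide, so 4 arrays a group leave room for sizeable differences in either direction for Il6 and Tnfsf11. Ccl3, a CC chemokine gene, stood at 1.98, 0.01, 2.93 and 0.60 with LPS and at 0.84, -0.01, 0.22 and -0.02 with TNFa. Its difference, -1.12 ± 0.40, did not pass (adjusted p = 0.146), nor did that of Crabp2, a retinoic acid binding protein gene, at -1.16 ± 0.55 (adjusted p = 0.383). Ccl5, described above, was the remaining one.

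In wild-type cultures the same contrast rests on 2 arrays a group. It called 81 genes (0.445%), 57 higher under TNFa (0.313%) and 24 under LPS (0.132%). An unadjusted p below the threshold was found for 864 genes, a smaller share of the 18194 than the 0.05 that chance alone would give. The limma fit of those 4 arrays alone called 0 genes, with 578 at an unadjusted p under 0.05, again below that share, and leaving out WT TNFa replicate 2, WT LPS replicate 1 or WT LPS replicate 2 left 34, 40 and 38. Its largest differences toward TNFa were Cxcl10, at 2.99 ± 0.55 (adjusted p = 0.0027), Cxcl11, at 2.65 ± 0.39, and Ubd, a ubiquitin-like modifier gene, at 2.18 ± 0.22. Toward LPS they were Csf3, at -2.52 ± 0.45 (adjusted p = 0.00174), the gluconeogenic enzyme gene Fbp1, at -2.36 ± 0.30, and Pparg, a nuclear receptor of lipid metabolism, at -1.97 ± 0.27. Of the NF-kB list 6 genes were higher under TNFa in wild-type cultures and 1 under LPS, and of the class I list 5 and 0. Other lists had few calls there. The interferon list had 1 toward TNFa and 0 toward LPS among 34 genes, and the CXC and CX3C chemokine list 2 and 1. In the nitric oxide and immediate early lists no gene was called in wild-type cultures.

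The difference between genotypes in this contrast was tested itself, as the knockout-labelled difference minus the wild-type one. It passed for 21 genes (0.115%), 17 with the greater value in knockout-labelled cultures (0.0934%) and 4 in wild-type (0.022%). An unadjusted p below the threshold was found for 718, a smaller share of the 18194 genes than the 0.05 that chance alone would give. The colony-stimulating factors stood out. In wild-type cultures Csf3 stood at 2.27 and 1.11 with TNFa and at 4.18 and 4.25 with LPS, so LPS was higher there, while TNFa was higher in knockout-labelled cultures by 2.07. The difference between the genotypes was 4.59 ± 0.55 (adjusted p = 5.04e-06). Csf2 showed the same turn, at 3.16 and 2.29 with TNFa and 4.43 and 4.49 with LPS in wild-type cultures, a contrast of -1.74 ± 0.31, and the genotypes differed by 3.95 ± 0.38 (adjusted p = 5.29e-08). Cxcl2 stood at 0.38 and -0.04 with TNFa and at 0.71 and 1.15 with LPS in wild-type cultures, with a genotype difference of 2.33 ± 0.27 (adjusted p = 3.52e-06). Icosl, a T-cell costimulatory ligand gene, differed between the stimuli by 2.19 ± 0.17 in knockout-labelled and -0.21 ± 0.24 in wild-type cultures (genotype difference 2.40 ± 0.29, adjusted p = 5.04e-06), although a second probe set of the gene gave 0.09 in knockout-labelled cultures. Gpr84 had a genotype difference of 2.18, and its wild-type LPS arrays, at 2.56 and 2.36, stood nearly as high as its wild-type TNFa arrays, at 2.90 and 2.59. Arg2 (2.56), Fbp1 (2.17), Sntb1 (1.99), Cited1 (1.84), Pde4b (1.75), Slc39a4 (1.48), Lamb3 (1.34), the RNase gene Zc3h12a (1.28), Nfkbiz (1.18), Clic5 (0.99), P4ha2 (0.93) and Cd70 (0.86) make up the 17, with Nfkbiz represented by 1 of probe sets that disagree in knockout-labelled cultures.

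The 4 with the greater value in wild-type cultures were Btbd11 (-1.72), Ubd (-1.50), the stromelysin gene Mmp10 (-1.50) and Shroom2 (-0.99). Ubd stood at 3.17 and 2.10 with TNFa against 0.65 and 0.26 with LPS in wild-type cultures, and Mmp10 at 2.41 and 3.42 against 1.03 and 1.09. For the CXCR3 ligands Cxcl11, at 1.59 ± 0.48 (adjusted p = 0.34 in limma), and Cxcl10, at 0.81 ± 0.68, the genotype difference did not pass. The Cxcl11 value was nevertheless larger in size than those of Ubd and Mmp10, which were called. Of the 21 genes, 10 remained called when any of the 12 arrays was left out, among them Csf2, Csf3, Cxcl2, Icosl and Gpr84. The count was 36 without WT TNFa replicate 1. The wild-type LPS and TNFa arrays also stood far above the knockout-labelled ones for endothelial genes, Emcn at 4.15 to 4.29 and Cdh5 at 4.34 to 4.73. Genotype and this difference between the cultures cannot be told apart, and its part in the 21 genes was not tested. Without the arrays of high 18S signal, which leaves 1 wild-type array per stimulus, 4 genes were called, Csf2, Cxcl2, Cited1 and Ubd.

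**Figure D4:**
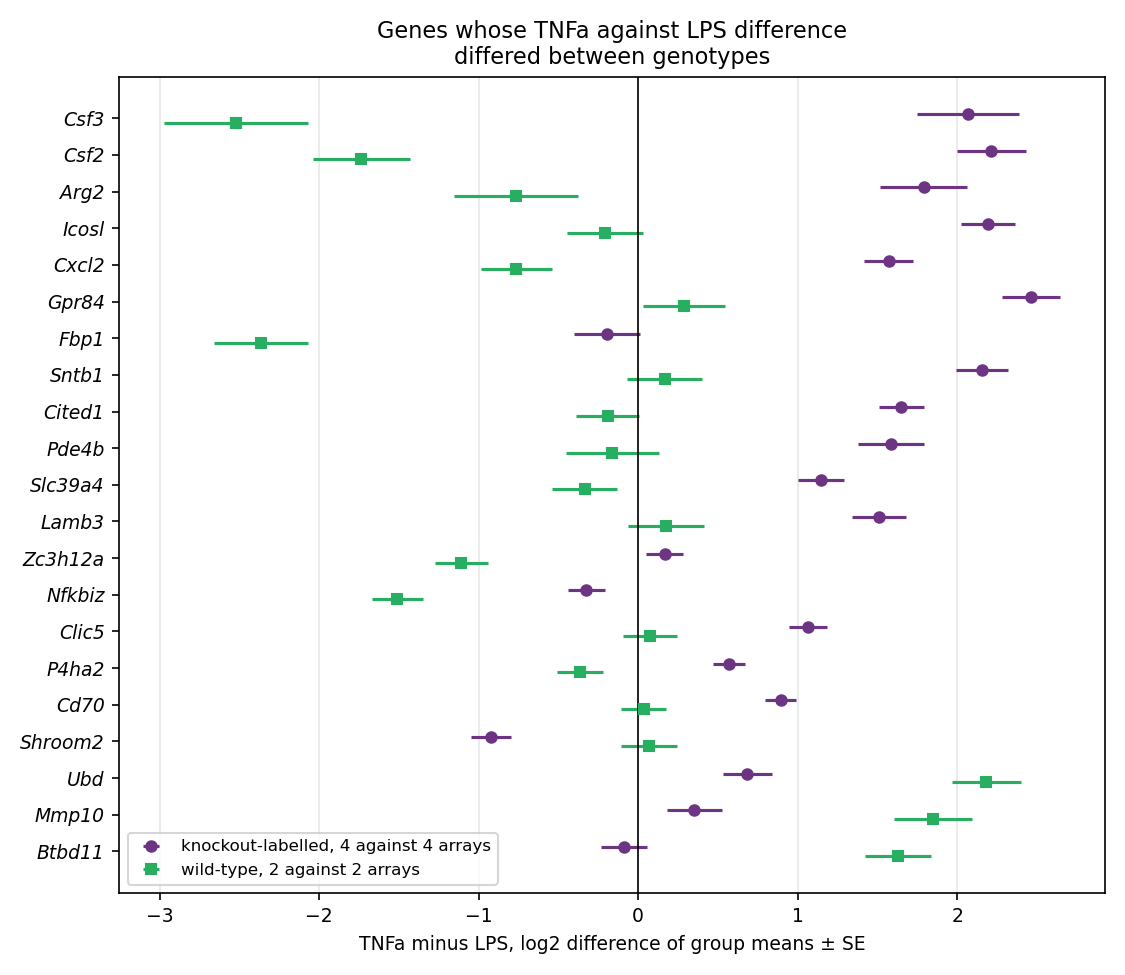
TNFa minus LPS difference (log2) with its SE in knockout-labelled cultures (purple) and wild-type cultures (green) for the 21 genes whose difference between genotypes passed the threshold. Csf3 lies at 2.07 against -2.52 and Csf2 at 2.21 against -1.74, on opposite sides of 0, while Btbd11 lies at -0.09 against 1.63.

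Markers of cell types were examined in the 8 arrays for a shift between the stimuli. Centred values show no absence, so the labelled cell type could not be checked by level. In these bulk samples fewer cells of a type and less RNA per cell cannot be told apart. None of 15 fibroblast markers was called by limma (3 had an unadjusted p under 0.05), but 14 had a negative difference, with a median of -0.29. Their mean lay at -0.36 to -0.01 on the TNFa arrays, below every LPS array at 0.02 to 0.11, and at -0.16 to 0.15 on the untreated arrays. None of 17 macrophage markers was called either (2 with an unadjusted p under 0.05), and their mean ranged from -0.15 to 0.14 with TNFa and from -0.19 to 0.14 with LPS. Of 15 endothelial markers, Flt1 was higher under TNFa, by 0.90 ± 0.25 (adjusted p = 0.0371), and the list mean ran from -1.16 to 0.15 with TNFa and from -1.11 to -0.03 with LPS, a spread that follows the culture sets. In the other lists the neutrophil gene Cxcr2 (-0.46) and the chondrocyte regulator Sox9 (-0.77) were higher under LPS, and Ibsp (0.76), a bone matrix gene, was higher under TNFa. In the dendritic cell, T and NK cell, B cell, mast cell, pericyte, adipocyte, and muscle and nerve lists no gene was called, and each held at most 2 with an unadjusted p under 0.05. With 3.48% of all genes called, marker lists this short may hold none. The part of these shifts in the results above was not tested.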

How the data were processed

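RNA of 42 cultures had been hybridised to Affymetrix arrays of 45101 probe sets. The deposited values are log2 values made with RMA, per the submitters' processing notes, which give no version; each probe set's median over the arrays is 0 within 1e-05. Base 2 was inferred, since the widest probe set spans 9.81 units, which would be 14.1 doublings on a natural log scale. Of the probe sets, 34958 name 1 gene, 932 several and 9211 none, and 34754 were matched by gene number. Each of 18194 genes was represented by its probe set of largest SD over the 42 arrays, a choice that favours large differences; 9012 genes have more than 1 probe set. The choice passed over 364 probe sets that followed the 18S signal (r above 0.7) unless a gene had no other.

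The main test was limma 3.58.1 in R 4.3.3, with the mean of each group and all 42 arrays in the fit (30 residual and 4.23 prior degrees of freedom) and Benjamini-Hochberg adjustment over all genes at 0.05; it was tested on simulated data. Scanner files were not used here, and centred values allow no filter on dim probe sets, so a filter on spread was tried instead. Named are the 12 genes with the largest difference each way among called genes whose groups do not overlap, the 4 members of each of 30 pathway lists with the smallest adjusted p and any called against the list's majority, the 3 largest each way in wild-type and between genotypes, the receptors, Tnf and Tnfaip6. Other called list members, H2-K1, B2m, Tapbp, Cxcl1, Cxcl5 and the genes of the largest LPS rises were named after their values were seen. The members and lists, also the 13 cell type lists, were chosen with earlier results of these data known. Culture sets were defined from the values, by probe sets with a gap of at least 1 log2 unit that split every group, and all 9 such probe sets of the knockout-labelled arrays gave the same split. Groups come from the labels, and the replicate numbers were not used as pairs. The number of arrays limits the precision. Alternatives were other fits, normalizations, probe set rules, blocks and omissions of arrays.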

Additional observations from a re-analysis of the deposited data

Results flagged for a closer look

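In 21 of 471 groups of knockout-labelled arrays, 1 per named gene and group, a single array stood apart from the others of its group by Dixon's ratio, the gap to the nearest array as a share of the group's range. Chance alone gives about 1 in 20, or 23.6. Among the LPS arrays these were Cxcl9 (replicate 3, at 1.04 against 0.37 for the nearest, ratio 0.885), Spib (replicate 4, at 0.86 against 0.26 for the nearest, ratio 0.836), Wnt5a (replicate 4, at -0.10 against 0.47 for the nearest, ratio 0.884) and Ptx3 (replicate 2, at -0.03 against 0.27 for the nearest, ratio 0.865). Further such LPS values were those of Sgk1 (replicate 2, at 0.17 against 0.11 for the nearest, ratio 0.838), Klf9 (replicate 2, at 0.37 against -0.07 for the nearest, ratio 0.896), Mlkl (replicate 4, at -0.41 against -0.02 for the nearest, ratio 0.941) and Bid (replicate 3, at -0.21 against 0.17 for the nearest, ratio 0.891). The list of LPS arrays ended with Ubd (replicate 3, at -0.27 against -0.01 for the nearest, ratio 0.864). Among the TNFa arrays these were 1500009L16Rik (replicate 2, at 2.59 against 2.99 for the nearest, ratio 0.881), Tnf (replicate 2, at -0.26 against 0.19 for the nearest, ratio 0.842), Tbk1 (replicate 4, at 0.36 against 0.05 for the nearest, ratio 0.913) and Madcam1 (replicate 4, at 2.81 against 1.59 for the nearest, ratio 0.854). Further such TNFa values were those of Fosl2 (replicate 1, at -0.22 against -0.04 for the nearest, ratio 0.883) and Shroom2 (replicate 1, at -1.67 against -1.09 for the nearest, ratio 0.909). Among the untreated arrays these were Tlr4 (replicate 7, at -1.01 against -0.18 for the nearest, ratio 0.582), Irf5 (replicate 6, at -0.51 against -0.07 for the nearest, ratio 0.697), Cd74 (replicate 4, at -0.89 against -0.14 for the nearest, ratio 0.685) and Ptgir (replicate 3, at -0.34 against 0.13 for the nearest, ratio 0.624). Further such untreated values were those of Bmp2 (replicate 6, at 0.23 against 0.02 for the nearest, ratio 0.55) and C1qa (replicate 4, at -0.50 against -0.14 for the nearest, ratio 0.595). Replicate 4 supplied the value of Spib, Wnt5a and Mlkl with LPS and of Tbk1 and Madcam1 with TNFa, and it is an array of high 18S signal in both groups. Replicate 2, the other such array, supplied Ptx3, Sgk1 and Klf9 with LPS and 1500009L16Rik and Tnf with TNFa. The part of the 18S signal in these values was not tested.

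The contrast of TNFa with LPS differed between genotypes, by the interaction term in limma with adjustment over all genes, for 21 genes. The knockout-labelled minus wild-type values were 4.59 for Csf3, 3.95 for Csf2, 2.56 for Arg2, 2.40 for Icosl, 2.33 for Cxcl2, 2.18 for Gpr84 and 2.17 for Fbp1. Smaller positive values were found for Sntb1 (1.99), Cited1 (1.84), Pde4b (1.75), Slc39a4 (1.48), Lamb3 (1.34), Zc3h12a (1.28), Nfkbiz (1.18), Clic5 (0.99), P4ha2 (0.93) and Cd70 (0.86). Negative values were found for Btbd11 (-1.72), Ubd (-1.50), Mmp10 (-1.50) and Shroom2 (-0.99). For Fbp1, Nfkbiz and Zc3h12a the wild-type contrast passed the threshold, at -2.36, -1.51 and -1.11, while none of their knockout-labelled contrasts did, at -0.20, -0.32 and 0.17. Btbd11 and Mmp10, whose wild-type contrasts ran toward TNFa, were not called in knockout-labelled cultures either, at -0.09 and 0.35.

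Of the 21 calls, 11 were lost under at least 1 omission of a single array. The call of Lamb3 was lost under 9 of the 12 omissions and the calls of Clic5 and Shroom2 under 8 each, so no particular array decided these. Without WT TNFa replicate 2 those of Arg2, Fbp1, Lamb3, Mmp10, Nfkbiz, P4ha2, Pde4b and Shroom2 were lost, and without WT LPS replicate 2 those of Arg2, Cd70, Clic5, Mmp10, Pde4b, Shroom2 and Ubd. Without WT LPS replicate 1 those of Cd70, Clic5, Lamb3, Mmp10, P4ha2 and Shroom2 were lost, and without WT TNFa replicate 1 those of Cd70, Clic5, Pde4b, Shroom2 and Ubd. Leaving out a knockout-labelled array lost calls of Cd70, Clic5, Lamb3, Pde4b or Shroom2. The highest adjusted p over these omissions was 0.717, for Lamb3 and Mmp10. Other probe sets of Clic5 gave knockout-labelled differences of 0.14 to 0.46 and one of Shroom2 gave -0.47. For Pde4b they gave 1.27, 1.33, -0.23, 0.00 and 0.08, and for Nfkbiz -0.24 and 0.93. For Sntb1 they gave 0.28, 0.73, 1.49, 0.58 and 0.31, all smaller than the 2.16 of the one used.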

How the results depend on the processing

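Of the values recomputed for the 101 named genes called between TNFa and LPS, each with 1 value per gene, 2036 kept the call, 185 lost it and 0 turned sign, although another probe set of Rbm33, tested by itself, was called in the other direction at 0.79. Of the 56 named genes not called, 7 turned sign under some alternative, and 124 of their values passed the threshold. For the difference between genotypes 379 values kept the call and 104 lost it. The count of 633 genes called between TNFa and LPS in knockout-labelled cultures became 1133 when culture set entered as a block (720 toward TNFa and 413 toward LPS) and 273 without the arrays of high 18S signal, and leaving out 1 array gave 480 (without LPS replicate 2) to 582. It was 915 after quantile normalization, 498 in the fit of the 8 arrays alone, and 512 and 472 within the culture sets, an alternative chosen after seeing the data. The 81 genes of the wild-type contrast became 0 with those 4 arrays alone (578 at an unadjusted p under 0.05 in limma) and 38 when the replicate block was added to that fit, 93 with the replicate block over all arrays, 7 after quantile normalization, 225 with the culture set as a block and 13 without the arrays of high 18S signal, and 34 to 88 when 1 array was left out. The 21 genes that differed between genotypes became 8 with the groups compared alone, 40 with the mean of a gene's probe sets, 32 with genes above the median SD, 53 after quantile normalization, 114 with the culture set as a block and 4 without the arrays of high 18S signal. Leaving out 1 array gave 14 to 36 of them. The cause of these shifts was not tested, apart from the fewer arrays or genes that an alternative itself brings. With the replicate number as a block the knockout-labelled contrast gave 677 genes over its 8 arrays and 687 over all arrays, and the difference between genotypes gave 14 and 32, the fit over all arrays being chosen after seeing the data. Arrays of the same number had deviations that correlated at 0.26, 0.51, 0.46 and -0.14, and 3 of the 4 TNFa arrays correlated best with the LPS array of their number. As 1 pair was below 0.1, the numbers were not taken as pairs; same-numbered arrays also share culture set and 18S state. The difference between genotypes has no value in a fit of 1 genotype. Of the list counts, 535 stayed within 1.5-fold of the reported one and 125 did not. Centred values give no signal over background, so which of the small differences come from dim probe sets cannot be told.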
